A study of Mus musculus with 9 samples.

Results

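The 26 genes described here carry inhibitory transmission by GABA and glycine. They were taken by symbol from the files, where each had 1 of the 53924 rows with a gene name, and comprise 17 receptor subunits, 7 genes of synthesis, breakdown and transport, and 2 genes of the postsynaptic scaffold. RNA came from the cerebellum of mice in 9 bulk libraries, 3 in each of 3 groups. Control mice had received saline, 3AP mice 3-AP (3-acetylpyridine, a nicotinamide analogue that kills neurons of the inferior olive and is used to cause ataxia), and PLX3AP mice 3-AP following depletion of microglia with PLX3397, an inhibitor of the CSF1 receptor. No label gives a strain, age, sex, dose or time, or says that each library is a separate animal. The p-values therefore judge differences against the spread between these libraries, which may be technical. No PLX3397-only group was analysed here.

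GABA is made from glutamate by the glutamic acid decarboxylases, loaded into synaptic vesicles together with glycine by 1 shared carrier, and acts on chloride channels of 5 subunits and on G protein-coupled GABA-B receptors. Uptake by plasma membrane transporters on neurons and astrocytes, and breakdown by GABA transaminase, end the signal. In the cerebellum Purkinje cells and the interneurons of the molecular layer release GABA, Golgi cells release GABA and glycine onto granule cells, and granule cells carry receptors with the alpha6 and delta subunits that set a tonic inhibitory current.

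The upstream sequences of 2 genes are shown because the results turn on them: Slc6a9, the 1 member that passed the test, and Gabra6, the receptor subunit with the highest level. They are the 250 bases before an annotated start, from RefSeq (GRCm38.p6), 5′ to 3′ on the gene's strand. Capitals mark matches to the 3 motifs searched on both strands, the GC box GGGCGG, the TATA box TATAAA and the nuclear factor I half-site TTGGCA, none of which overlapped another match here.

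Slc6a9, chr4:117835008-117835257, plus strand: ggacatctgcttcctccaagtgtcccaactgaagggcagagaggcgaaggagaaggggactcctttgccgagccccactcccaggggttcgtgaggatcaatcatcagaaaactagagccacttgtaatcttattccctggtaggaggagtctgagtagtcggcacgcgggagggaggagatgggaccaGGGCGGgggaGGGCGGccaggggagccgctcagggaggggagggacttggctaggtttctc

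Gabra6, chr11:42321073-42321322, minus strand: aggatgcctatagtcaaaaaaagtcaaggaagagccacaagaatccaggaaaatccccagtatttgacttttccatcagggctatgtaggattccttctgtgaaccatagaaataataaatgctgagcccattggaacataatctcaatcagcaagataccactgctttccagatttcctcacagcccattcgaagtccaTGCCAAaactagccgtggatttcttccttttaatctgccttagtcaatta

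The first of 3 annotated Slc6a9 starts had 2 GC boxes, and the other 2 windows had no match to the 3 motifs. In the Gabra6 window the capitals are the half-site read on the opposite strand. Of the 26 members 23 matched the RefSeq table, with 30 windows of 300 bases (250 before and 50 after the start), and Gabrd, Glra1 and Abat had no entry. The GC box was found in 15 of the 30 windows and in 35.7% of all 32851 windows, the TATA box in 5 and in 13.6%, and the half-site in 3 (Gabra6, Gabrg3 and Gad2) and in 14.1%. A match of these letters is a description of the window and not a measured binding site.

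Libraries held 18452256 to 22358447 estimated counts, of which the 26 members took 0.444 to 0.488%, and 16634 genes had enough counts to test, all 26 members among them. On the first principal component (33.4% of the variance) 3AP libraries scored 33.2 to 42.6 and the rest -25.9 to -14.2. The second (15.6%) crossed the groups: 3AP replicate 3, control replicates 1 and 2 and PLX3AP replicate 1 lay at 12.1 or above, and 3AP replicate 2 and PLX3AP replicates 2 and 3 at -29.2 to -18.6. Markers of Purkinje cells (8 of 8 tested, summed level 5630 to 6530 CPM), of granule cells (8 of 8, 3904 to 4764) and of interneurons of the molecular layer and Golgi cells (8 of 8, 1025 to 1204) were present in every library, where CPM is a count scaled to library size. Pvalb alone gave 532 to 652 CPM of the interneuron sums, so these sums do not describe the other markers of that list. None of these 24 markers passed edgeR's test in any comparison, nor with DESeq2 or limma-voom. By edgeR's test, 0 to 2 markers of a list had an unadjusted p under 0.05. Hox genes of the hindbrain outside the cerebellum summed to 0.00 to 2.00 CPM, highest in 3AP replicate 2. Choroid plexus markers summed to 25.5 to 3978 CPM, varying within and across groups. Forebrain markers (4 of 6 tested, none called by edgeR) summed to 9.59 to 16.3 CPM, lowest in 3AP replicate 2. Of these, Bcl11b, picked after its values were seen, was at 1.22 CPM there and 2.58 to 4.73 elsewhere. The other forebrain markers were not lowest there. The part of tissue composition in the member values was not tested.

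Levels are compared between genes in TPM, which allows for transcript length. Averaged over the 9 libraries, Gad1 (486 TPM), Gabra6 (409) and Gabbr1 (357) led, followed by Gabrd (178), Abat (170.0), Glrb (134), Slc32a1 (119.8) and Gabbr2 (102). Next came Gabrb2 (94.4), Nlgn2 (83.1), Slc6a9 (73.2), Slc6a11 (58.2) and Gad2 (54.1). The other receptor subunits were far lower, from Gabra4 (13.4) and Gabra3 (10.9) to Gabrg3 (1.01), Glra3 (0.75) and Gabre (0.24). Among the 5 alpha subunits listed, Gabra6 held 90.6 to 93.7% of the summed TPM in each library. Gad1 stood at 7.40 to 10.4 times the TPM of Gad2. Gphn was listed at 1044 to 2554 TPM, but its counts per TPM gave a length of only 0.0736 of the library median, so its TPM is not set against the others.

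**Figure D1:**
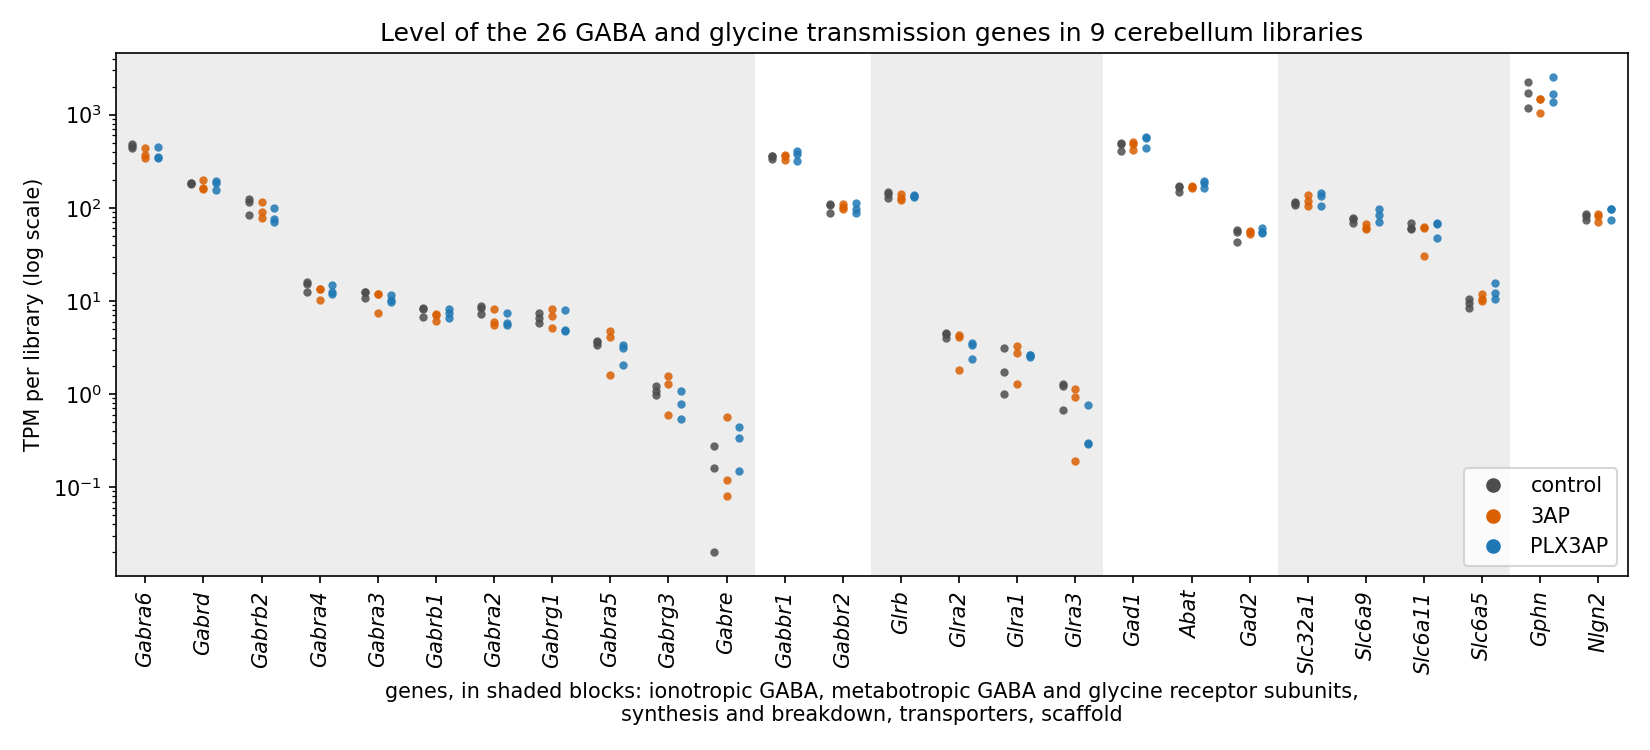
TPM (log scale) of the 26 genes in each of the 9 libraries, 1 point per library, coloured by group and ordered by mean TPM within 6 blocks of roles. Groups lie close together beside the range between genes, which runs from 0.24 TPM for Gabre to 486 for Gad1 without Gphn.

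In 3AP against control, the comparison that asks for the effect of 3-AP, no member passed edgeR's quasi-likelihood test at an adjusted p under 0.05, where 4.93% of all tested genes passed. DESeq2 called 1 member, Slc6a9, and limma-voom and limma-trend on log2 TPM called 0. At an unadjusted p under 0.05 there were 4 of 26, all lower (Slc6a9, Gabra2, Gabra4 and Gabra6), against 17% of all genes. Groups did not overlap in 4 of 26, again all lower (Slc6a9, Gabra3, Gabra4 and Gabra6), against 24.7% of all genes. Both shares are near or below those of all genes. The 95% interval of the log2 fold change lay within a 1.5-fold change either way in 13 of 26 members and in 61.4% of all genes.

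PLX3AP against 3AP asks what PLX3397 changed in mice given 3-AP. Microglia depletion cannot be told apart here from other effects of the drug. The glycine transporter Slc6a9 rose and no other member passed, 1 of 26 against 3.73% of all genes by the same test. At an unadjusted p under 0.05 there were 2 of 26, both higher (Slc6a9 and Slc6a5), against 12.1%. Slc6a9 was also the 1 member whose groups did not overlap, against 16.9% of all genes. Intervals lay within a 1.5-fold change for 16 of 26 members and 63.5% of all genes.

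In PLX3AP against control 0 of 26 members passed with edgeR, DESeq2, limma-voom or limma-trend, and 0.12% of all genes passed with edgeR. At an unadjusted p under 0.05 there were 1 higher (Slc6a5) and 3 lower (Gabra2, Gabra6 and Glra3), together 4 of 26 against 9.35%. Groups did not overlap in 6 of 26 against 14.3% of all genes, with Slc6a5 higher and Gabra3, Gabra5, Gabrg3, Glra2 and Glra3 lower. The interval stayed within a 1.5-fold change for 13 of 26 members and 63.4% of all genes. These 3 comparisons share libraries pairwise, so they are not separate evidence of 1 pattern.

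**Figure D2:**
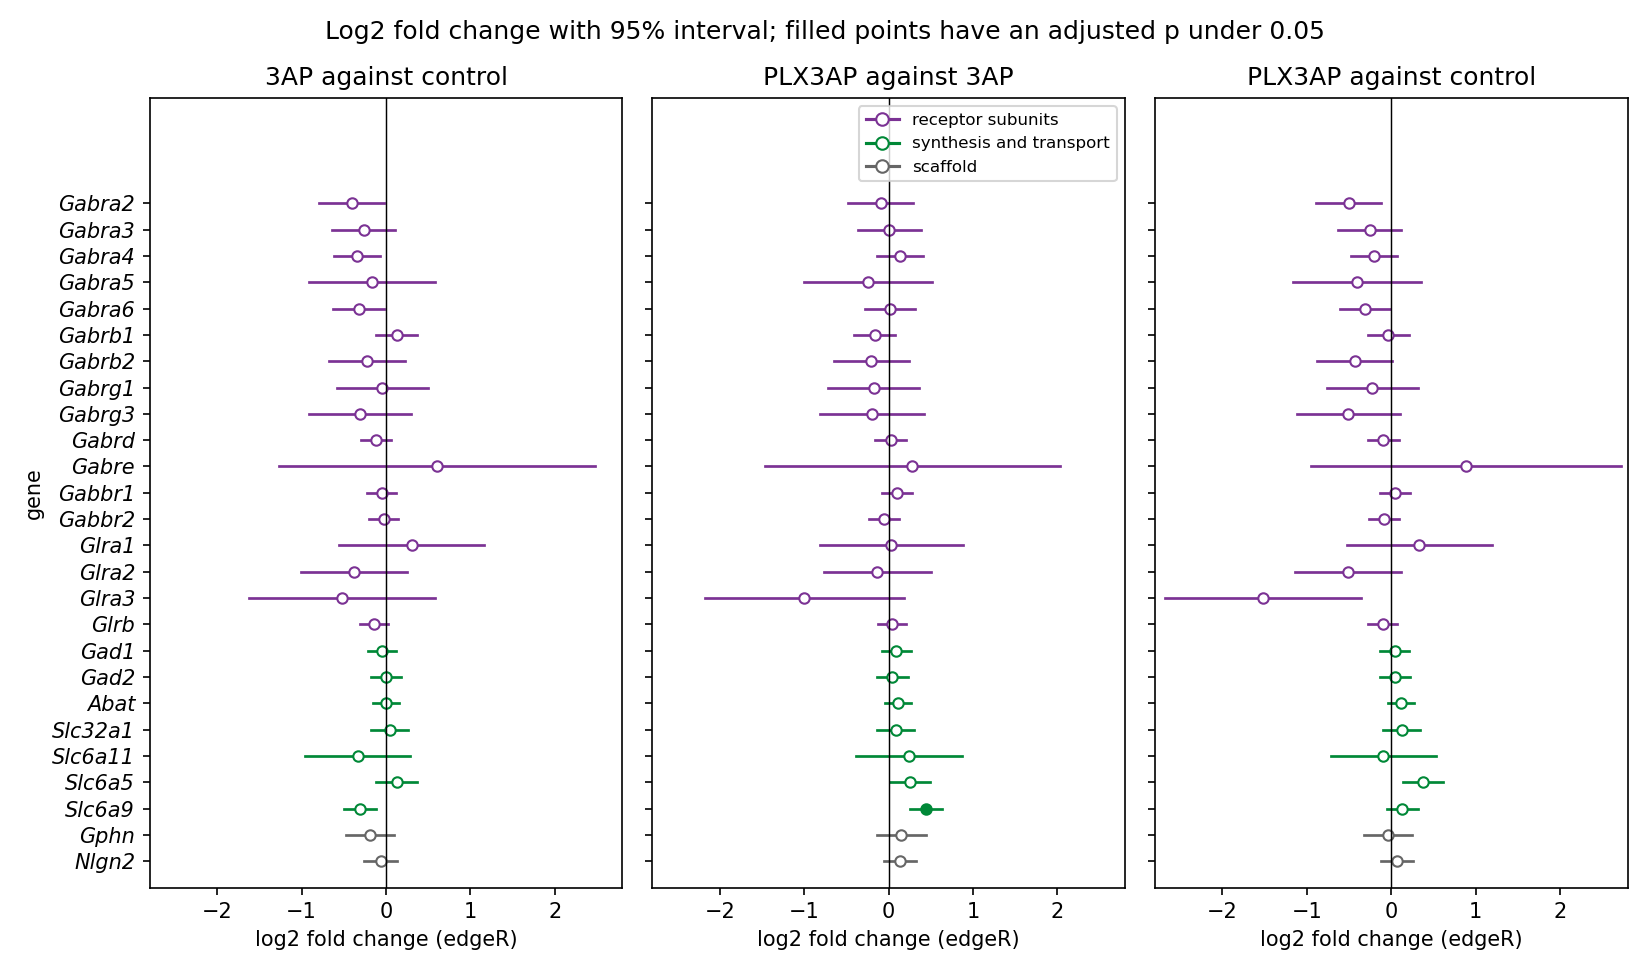
Log2 fold change of each member (point) with its 95% interval (line) in the 3 comparisons, from edgeR, coloured by class. The filled point is Slc6a9 in PLX3AP against 3AP, at 0.44, and in that panel all 7 synthesis and transport genes lie above 0.

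Slc6a9 encodes GlyT1, the glycine transporter of astrocytes and of some neurons, which clears glycine from around synapses (chr4:117834506-117875198, plus strand). Its level was 132, 132 and 134 CPM in control, 106, 105 and 109.8 in 3AP, and 124, 152 and 159 in PLX3AP. All 3 libraries of 3AP lay below every control and every PLX3AP library, whereas PLX3AP replicate 1 lay below the controls and replicates 2 and 3 above them. In PLX3AP against 3AP the gene was 1.36-fold higher (log2 fold change 0.44, SE 0.0869, 95% interval 0.25 to 0.63, edgeR adjusted p 0.0106). In 3AP against control the gene had a log2 fold change of -0.30 (SE 0.087, interval -0.49 to -0.12) and did not pass (edgeR adjusted p 0.0693). PLX3AP and control differed by 0.13 (SE 0.0866, interval -0.05 to 0.32, edgeR adjusted p 0.643).

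The call in PLX3AP against 3AP was lost in edgeR fits without 3AP replicate 1 (adjusted p 0.0633), PLX3AP replicate 2 (0.0630) or PLX3AP replicate 3 (0.0554), and with limma-trend on log2 TPM (0.120 to 0.251), at log2 fold changes of Slc6a9 from 0.36 to 0.42. Of the exon bases of Slc6a9, 30.2% are also exons of genes on the opposite strand, mainly Ccdc24, and strandedness is not given in the sources used here, so reads there cannot be told apart by strand. Ccdc24 itself was listed at 0.00 to 1.47 CPM and B4galt2, the other such gene with counts, at 22.9 to 32.0 CPM.

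Markers of astrocytes and Bergmann glia were set beside Slc6a9 because these cells express it. Of 8 markers 2 were lower in 3AP than in control by edgeR's test, Hopx (log2 fold change -0.76, adjusted p 0.00031) and the water channel Aqp4 (-0.49, adjusted p 0.030). Hopx alone was called in PLX3AP against 3AP, where it was higher (0.59, adjusted p 0.0021). The summed level of the 8 markers overlapped between groups, with no marker at 0. Sums were 4855 to 5095 CPM in control, 4355 to 5458 in 3AP and 4772 to 5310 in PLX3AP. Aldoc alone gave 2204 to 3034 CPM of these sums, so their overlap does not describe the other markers. Of the 8 estimates in 3AP against control, 6 lay below 0 and 2 above (median log2 fold change -0.04). Of 6 microglia markers 4 were higher in 3AP than in control and 5 lower in PLX3AP than in 3AP with edgeR. In PLX3AP against control 0 of 6 passed with edgeR and 2, both lower, with DESeq2. All 6 estimates lay below 0 in that comparison (median log2 fold change -0.67). Microglia sums were 127 to 138, 233 to 279 and 73.6 to 114 CPM in control, 3AP and PLX3AP. The part of either cell type in the Slc6a9 values was not tested, and in bulk tissue fewer cells of a type cannot be told apart from less RNA per cell.

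Slc6a5 encodes GlyT2, which refills glycinergic terminals and marks Golgi and other glycinergic interneurons. It was measured at 44.8, 40.4 and 38.5 CPM in control, 44.2, 48.9 and 41.9 in 3AP, and 46.4, 52.1 and 62.4 in PLX3AP. Every PLX3AP library lay above every control library and the 3AP libraries overlapped both. In PLX3AP against control the log2 fold change was 0.38 (SE 0.11, interval 0.14 to 0.62) with an unadjusted p of 0.0046, which did not pass (edgeR adjusted p 0.301). The value in PLX3AP against 3AP was 0.25 (SE 0.11, edgeR adjusted p 0.365). Without PLX3AP replicate 3 the 2 estimates became 0.25 and 0.13.

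Slc32a1 is the vesicular carrier of both transmitters and the transporter with the highest TPM. It stood at 184, 179.9 and 185 CPM in control, 188, 212 and 165 in 3AP, and 171, 213 and 213 in PLX3AP. Groups overlapped in all 3 comparisons, with log2 fold changes of 0.04 (SE 0.102, edgeR adjusted p 0.884), 0.08 (0.102, 0.829) and 0.12 (0.102, 0.713) in the 3 comparisons, given from here on in the order of 3AP against control, then PLX3AP against 3AP, then PLX3AP against control. Of its exon bases 24.9% are shared with an opposite-strand gene of 0.00 to 7.14 CPM, Gm14205.

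Slc6a11 encodes GAT3, the GABA transporter of astrocytes. Its level was 143, 166 and 158 CPM in control, 153, 71.4 and 146 in 3AP, and 121, 165 and 152 in PLX3AP, so that 3AP replicate 2 alone was low and the other 8 libraries lay between 121 and 166. The log2 fold change in 3AP against control was -0.34 (SE 0.268, edgeR adjusted p 0.609) and -0.06 without that library.

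Of the enzymes of synthesis and breakdown, Gad1, the decarboxylase that makes most GABA in neurons, was at 667, 659 and 601 CPM in control, 618, 656 and 589 in 3AP, and 619.6, 702 and 661 in PLX3AP. Abat, the GABA transaminase, was at 465, 458 and 432 CPM in control, 475, 434 and 449 in 3AP, and 459, 503 and 502 in PLX3AP. Neither gene separated any pair of groups: PLX3AP replicates 2 and 3 were the highest for Abat, and replicates 2 of PLX3AP and 1 of control for Gad1. Log2 fold changes of Gad1 were -0.05, 0.09 and 0.04 (SE 0.0782 each, edgeR adjusted p 0.817, 0.737 and 0.9). Those of Abat were 0.00, 0.11 and 0.11 (SE 0.0713 each, edgeR adjusted p 0.988, 0.63 and 0.637). Gad2, the decarboxylase of nerve terminals, ranged from 157 to 195 CPM over the 9 libraries. For these 3 enzymes all 9 intervals lay within a 1.5-fold change.

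**Figure D3:**
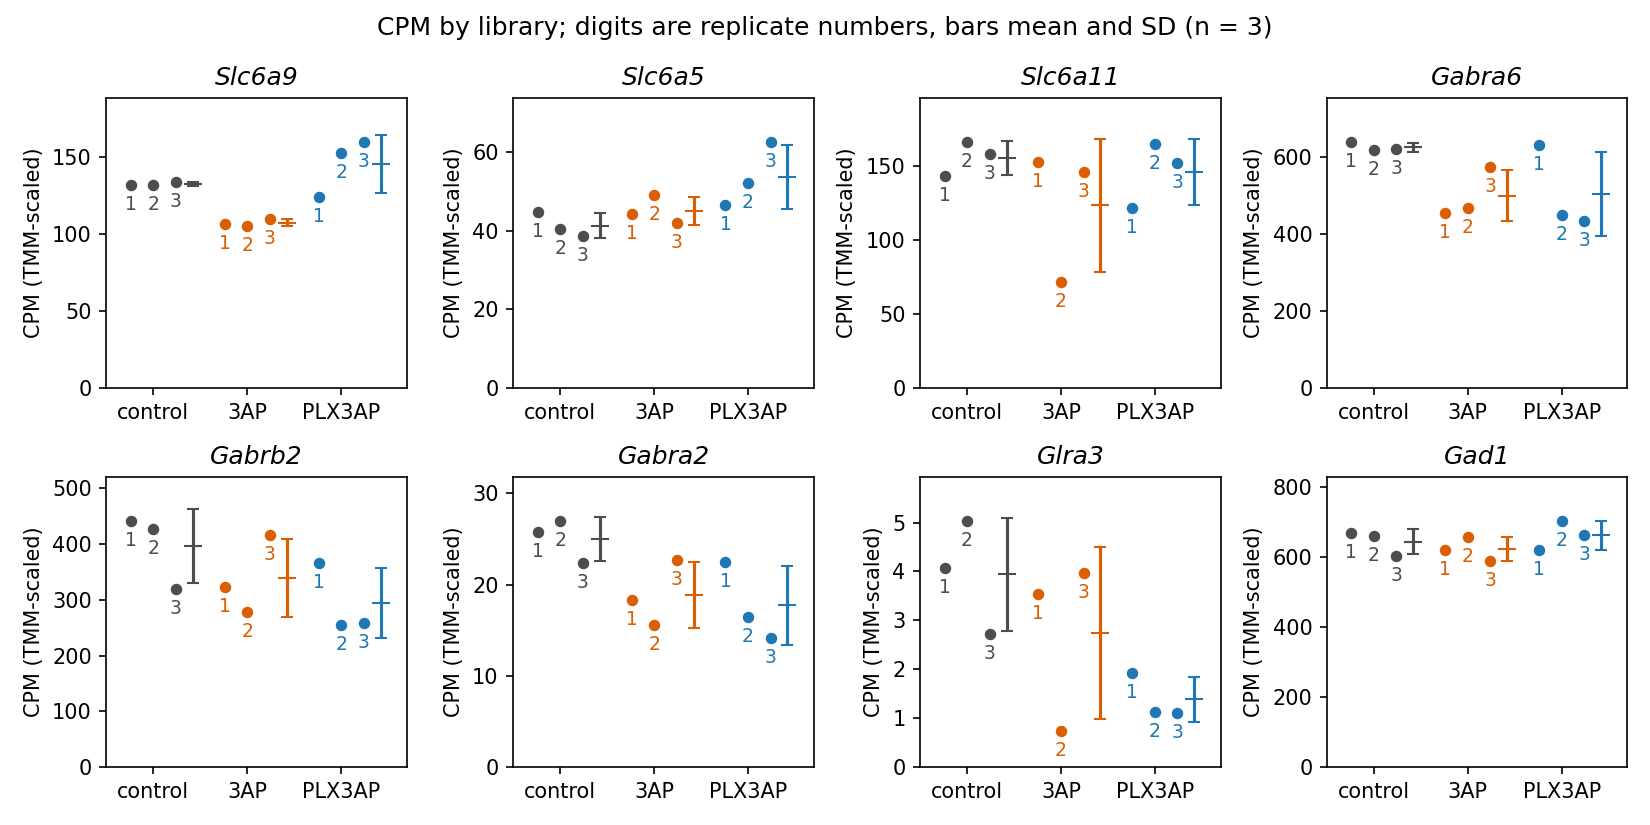
TMM-scaled CPM of 8 members by library, with replicate numbers beside the points and the mean and SD of each group (n = 3) at its right. In the Slc6a9 panel the 3AP libraries lie at 105 to 109.8 CPM below all others, in the Slc6a11 panel 3AP replicate 2 is alone at 71.4, and in the Gabra6 panel PLX3AP replicate 1 (631) lies with the controls.

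Gabra6 encodes the alpha6 subunit, found almost only in cerebellar granule cells (chr11:42306437-42321072, minus strand). It was measured at 639, 618 and 620.3 CPM in control, 456, 467 and 576 in 3AP, and 631, 451 and 435 in PLX3AP. Every 3AP library lay below every control library, and in PLX3AP replicates 2 and 3 were the lowest of all 9 while replicate 1 was at the control level. Log2 fold changes were -0.32 in 3AP against control (SE 0.136, interval -0.62 to -0.03, edgeR adjusted p 0.251), 0.02 in PLX3AP against 3AP (SE 0.136, adjusted p 0.975) and -0.31 in PLX3AP against control (SE 0.136, adjusted p 0.519). None passed, and without PLX3AP replicate 1 the last became -0.51 with an edgeR adjusted p of 0.0434 for Gabra6.

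The 8 granule cell markers all had estimates below 0 in 3AP against control, with a median log2 fold change of -0.14, and none passed. Their summed level was 4498 to 4764 CPM in control, 3904 to 4450 in 3AP and 4524 to 4672 in PLX3AP. The 8 markers did not move alike: Neurod1 stood at 411 CPM in PLX3AP replicate 1 and at 327 and 320 in replicates 2 and 3, and Etv1 at 414, 336 and 366, as Gabra6 was high in replicate 1 and low in the other two, whereas Fat2 stood at 493, 498 and 568. Neurod1, Etv1 and Fat2 were picked after their values were seen. The part of granule cells in the Gabra6 values was not tested.

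Gabrd encodes the delta subunit, the partner of alpha6 in the receptors outside synapses of granule cells. Its values were 186, 193 and 204 CPM in control, 171, 199.9 and 167 in 3AP, and 169.7, 189.8 and 187 in PLX3AP. The groups overlapped in all 3 comparisons and log2 fold changes were -0.12, 0.02 and -0.09 (SE 0.0831 each, edgeR adjusted p 0.539, 0.945 and 0.74). All 3 intervals of Gabrd lay between -0.30 and 0.20.

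Gabrb2, which lies 98.7 kb from Gabra6 on chromosome 11 in the opposite orientation and encodes a beta subunit of many cerebellar receptors, was at 441, 428 and 319.5 CPM in control, 322, 278 and 416 in 3AP, and 367, 256 and 259 in PLX3AP. Its high libraries were control replicates 1 and 2, 3AP replicate 3 and PLX3AP replicate 1, so that each group held high and low libraries and all groups overlapped. Gabra2, an alpha subunit gene of the chromosome 5 cluster, was at 25.8, 27.0 and 22.3 CPM in control, 18.3, 15.6 and 22.7 in 3AP, and 22.5, 16.5 and 14.1 in PLX3AP. Its PLX3AP replicates 2 and 3 and 3AP replicate 2 were the lowest and the groups overlapped. On the second principal component the 4 high libraries of Gabrb2 lay at 12.1 or above and the 3 lowest of Gabra2 at -29.2 to -18.6. Log2 fold changes in PLX3AP against control were -0.43 for Gabrb2 (SE 0.197, edgeR adjusted p 0.538) and -0.50 for Gabra2 (SE 0.176, edgeR adjusted p 0.415). Without PLX3AP replicate 1 they became -0.63 (edgeR adjusted p 0.131) for Gabrb2 and -0.72 (edgeR adjusted p 0.0547) for Gabra2. The part of that component in these estimates was not tested.

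Gabra4, which encodes the alpha4 subunit, was at 36.4, 37.3 and 32.5 CPM in control, 28.9, 23.8 and 30.9 in 3AP, and 36.2, 28.7 and 27.2 in PLX3AP. All 3 libraries of 3AP lay below the controls and PLX3AP overlapped both. The log2 fold change in 3AP against control was -0.34 (SE 0.125, interval -0.62 to -0.07) and did not pass (edgeR adjusted p 0.166). Gabrb1 starts within Gabra4 on the other strand (196 bases of the genes and 46 of their exons overlap). Its level ranged from 44.6 to 60.3 CPM and its log2 fold change in 3AP against control was 0.13 from counts (SE 0.112) but between -0.19 and -0.17 with limma-trend on log2 TPM. Its counts per TPM, a measure of the length used, were larger in 3AP (5.87 to 6.24 library medians) and PLX3AP replicate 1 (6.15) than in the 5 other libraries (4.34 to 4.67).

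The remaining ionotropic subunits had wide intervals. Gabrg1, next to Gabra2 on chromosome 5, ranged from 11.2 to 22.4 CPM, highest in PLX3AP replicate 1 and lowest in PLX3AP replicate 3. Gabra3 of the X chromosome was at 25.2, 26.4 and 24.9 CPM in control, 24.3, 14.7 and 24.7 in 3AP, and 21.9, 23.3 and 18.9 in PLX3AP. Its controls lay above all other libraries, and the log2 fold changes against control were -0.27 in 3AP and -0.26 in PLX3AP (SE 0.169 each, edgeR adjusted p 0.48 and 0.652). Without 3AP replicate 2 the first of these became -0.06. Gabra5 (2.19 to 6.68 CPM) and its neighbour Gabrg3 (2.14 to 4.61 CPM) on chromosome 7 were both lowest in 3AP replicate 2, and both lower in every PLX3AP library than in any control library. Gabre, at 0.0491 to 1.41 CPM and 112 counts in all 9 libraries, was too low for a statement on change, with an interval of -1.27 to 2.48 in 3AP against control.

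The 2 subunits of the GABA-B receptor, which act together as 1 receptor, had levels that overlapped between groups. Gabbr1, the subunit that binds GABA, was at 701, 719.9 and 699.5 CPM in control, 705, 708 and 631 in 3AP, and 665, 753 and 774 in PLX3AP. Gabbr2, the subunit that couples to the G protein, was at 339, 331 and 296 CPM in control, 317, 331 and 299 in 3AP, and 284, 299 and 329 in PLX3AP. Log2 fold changes of Gabbr1 were -0.05, 0.10 and 0.05 and those of Gabbr2 -0.03, -0.05 and -0.08 (SE 0.0801 to 0.0802, edgeR adjusted p 0.711 to 0.905). All 6 intervals lay within a 1.5-fold change.

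Glrb, the beta subunit that anchors glycine receptors to gephyrin, had the highest level of the glycine receptor genes. It was measured at 259, 251 and 238 CPM in control, 226, 208 and 244 in 3AP, and 244, 237 and 216 in PLX3AP. The 3AP libraries overlapped the controls at their upper end, and log2 fold changes were -0.14, 0.04 and -0.10 (SE 0.0783 each, edgeR adjusted p 0.402, 0.895 and 0.699). Glra2, the alpha subunit with the next highest TPM, was at 8.11, 8.47 and 7.99 CPM in control, 8.05, 3.31 and 7.52 in 3AP, and 6.43, 6.6 and 4.2 in PLX3AP. Every PLX3AP library was below every control, and in 3AP replicate 2 alone was low while replicates 1 and 3 stood near the controls. Log2 fold changes of Glra2 were -0.38 (SE 0.284, edgeR adjusted p 0.565), -0.13 (0.288, 0.906) and -0.51 (0.286, 0.594), and the first was -0.07 without 3AP replicate 2.

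Glra3, which encodes the alpha3 subunit, had 489 counts in all and values of 4.08, 5.03 and 2.73 CPM in control, 3.53, 0.731 and 3.98 in 3AP, and 1.92, 1.13 and 1.1 in PLX3AP. The PLX3AP libraries were below all controls and below 3AP replicates 1 and 3. This gave the largest receptor estimate, a log2 fold change of -1.52 in PLX3AP against control (SE 0.524, interval -2.68 to -0.35), which did not pass (edgeR adjusted p 0.415). In PLX3AP against 3AP the value was -0.998 (SE 0.529, adjusted p 0.522) and, without 3AP replicate 2, -1.45 with an edgeR adjusted p of 0.0376 for Glra3. Glra1, the alpha subunit of adult spinal cord and brainstem, ranged from 1.41 to 4.12 CPM with overlapping groups.

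Gphn encodes gephyrin, which holds glycine receptors and many GABA-A receptors at the synapse, and Nlgn2 the adhesion protein neuroligin 2 of inhibitory synapses. Gphn was at 184, 135 and 165 CPM in control, 133, 142 and 149.7 in 3AP, and 186, 154 and 133 in PLX3AP. Nlgn2 was at 229, 237 and 221 CPM in control, 227, 233 and 196 in 3AP, and 213, 256 and 252 in PLX3AP. For both genes the groups overlapped in every comparison. Log2 fold changes were -0.19, 0.15 and -0.03 for Gphn (SE 0.13 each, edgeR adjusted p 0.532, 0.735 and 0.957) and -0.07, 0.13 and 0.07 for Nlgn2 (SE 0.0883 to 0.0884, edgeR adjusted p 0.772, 0.631 and 0.832).

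Receptor subunits were then set against synthesis and transport. In 3AP against control 14 of 17 receptor genes had estimates below 0 with a median log2 fold change of -0.16, and 4 of 7 synthesis and transport genes with a median of -0.002, beside 0.001 over all tested genes. In PLX3AP against 3AP 9 of 17 receptor genes were below 0 (median -0.05) and 0 of 7 synthesis and transport genes (median 0.11), beside -0.008 over all genes. In PLX3AP against control 14 of 17 were below 0 (median -0.22) and 1 of 7 (median 0.11), beside 0.001 over all genes. Of all tested genes 49.7%, 51.8% and 49.6% had estimates below 0 in these 3 comparisons. No receptor gene passed in any comparison, and Slc6a9 was the 1 gene of the other class that did, so the counts below 0 describe estimates and not called changes. Of the 17 receptor intervals 5, 9 and 6 lay within a 1.5-fold change in the 3 comparisons, against 6, 5 and 5 of 7.

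By role, the median in 3AP against control was -0.23 for the 11 ionotropic GABA receptor subunits, -0.26 for the 4 glycine receptor subunits and -0.04 for the 2 GABA-B subunits. In PLX3AP against control the same medians were -0.26, -0.31 and -0.02. Single libraries moved the receptor median: in 3AP against control it was -0.08 without 3AP replicate 2 and -0.25 without 3AP replicate 3, and in PLX3AP against control -0.35 without PLX3AP replicate 1 and -0.15 without PLX3AP replicate 3. In PLX3AP against 3AP it was -0.22 without 3AP replicate 2, -0.18 without PLX3AP replicate 1 and 0.01 without PLX3AP replicate 3. 3AP replicate 2 was the lowest of the 9 libraries for 9 of 26 members, 7 of them receptor genes, where 10.1% of all tested genes had their lowest value.

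The summed TPM of the 17 receptor genes was 1472, 1436 and 1314 in control, 1247, 1287 and 1345 in 3AP, and 1306, 1258 and 1316 in PLX3AP. For the 7 synthesis and transport genes it was 985, 971 and 837 in control, 993, 941 and 881 in 3AP, and 883, 1106 and 1157 in PLX3AP. Control replicates 1 and 2 had the highest receptor sums and PLX3AP replicates 2 and 3 the highest sums of the other class, and both sums overlapped between all groups. The ratio of the sums was 1.51 ± 0.0489 in control, 1.38 ± 0.136 in 3AP and 1.25 ± 0.198 in PLX3AP (mean ± SD, n = 3). PLX3AP replicate 1, at 1.48, was close to control replicate 2 and lay far above PLX3AP replicates 2 and 3, both at 1.14, so the groups overlapped. Gabra6 alone contributed 463 ± 22.1, 383 ± 50.1 and 382 ± 63.0 TPM to the receptor sums of control, 3AP and PLX3AP (SD, n = 3).

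**Figure D4:**
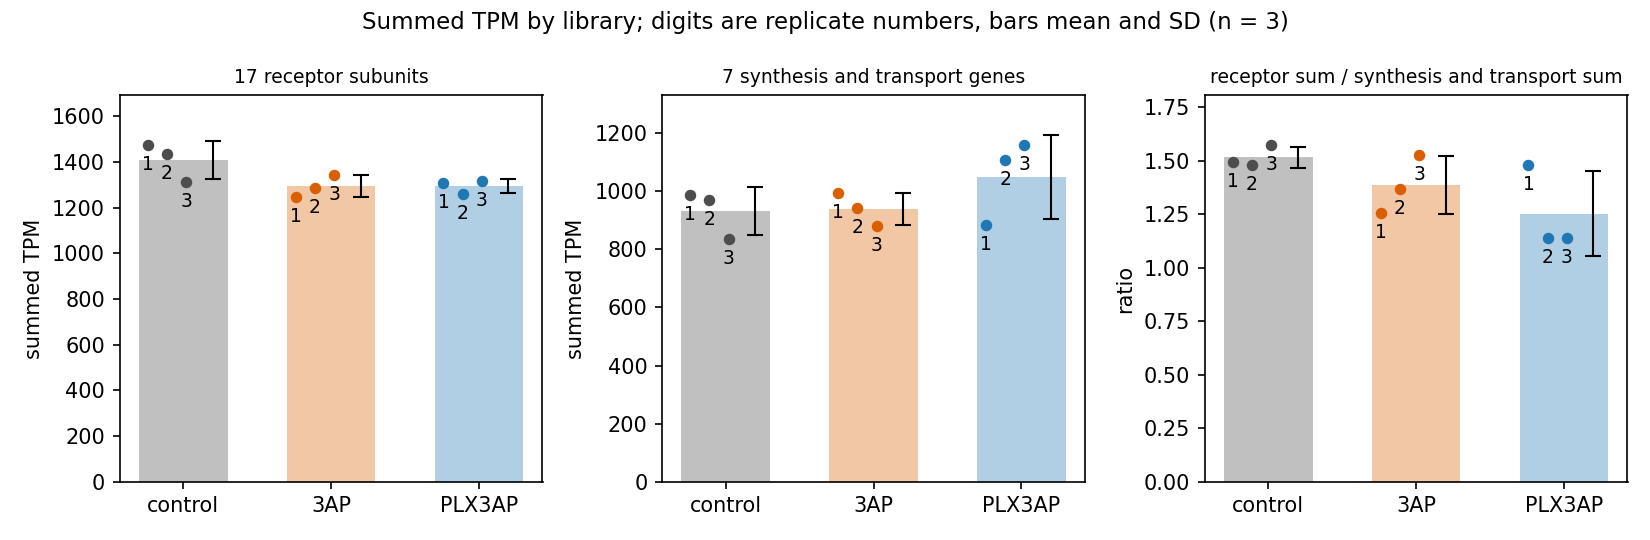
Summed TPM of receptor subunits (left) and of synthesis and transport genes (middle), and the ratio of the sums (right), with 1 point and replicate number per library and bars for the mean and SD (n = 3). PLX3AP replicate 1 has a ratio of 1.48 and PLX3AP replicates 2 and 3 of 1.14.

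Of 31 other genes of the pathway 28 were tested, among them the remaining receptor and transporter genes, the KCTD subunits of GABA-B receptors, GABA receptor trafficking proteins, chloride cotransporters and the glutamine cycle. With edgeR, Slc38a5 was the 1 gene of 28 called in 3AP against control, where it rose, and the 1 of 28 called in PLX3AP against 3AP, where it fell, beside 4.93% and 3.73% of all genes. In PLX3AP against control 0 of 28 passed with edgeR, DESeq2, limma-voom or limma-trend, beside 0.12% of all genes with edgeR. DESeq2 called 1 more gene in each of the other comparisons, Kctd12 lower in 3AP against control and Slc38a3 higher in PLX3AP against 3AP, both named after their values were seen, and limma-voom called 1 gene in each. At an unadjusted p under 0.05 there were 4, 2 and 3 of 28 against 17%, 12.1% and 9.35% of all genes, so these shares are near or below those of all genes. Medians were -0.014, -0.002 and 0.012. Slc38a5 encodes SNAT5, which carries glutamine and glycine across the plasma membrane. Its level was 3.59, 3.75 and 2.83 CPM in control, 6.43, 8.72 and 7.13 in 3AP, and 2.75, 3.07 and 2.72 in PLX3AP. The 3AP libraries lay above all 6 others, with log2 fold changes of 1.13 in 3AP against control (SE 0.19, edgeR adjusted p 0.0034) and -1.38 in PLX3AP against 3AP (SE 0.192, edgeR adjusted p 0.00092). Slc6a9 differed in the opposite direction in the same pairs of groups, without passing in 3AP against control.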

How the data were processed

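Total RNA of mouse cerebellum was sequenced in 9 bulk libraries, 3 per group as labelled. Tools named by the submitters' processing notes are fastp, HISAT2, StringTie and RSEM, with the build mm10. The sources used here do not give the versions or roles of these tools, the annotation release, the filters or the strandedness. Deposited were unnormalized expected counts per gene and TPM, scaled by the authors to length and library total. Rows without a gene name (1884, 0.526 to 0.661% of counts) were left out.

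Expected counts were rounded and fitted in R 4.3.3 with edgeR 4.0.16: filterByExpr (16634 genes), TMM (factors 0.986 to 1.02), a robust quasi-likelihood fit of all 9 libraries, 3 two-sided contrasts and Benjamini-Hochberg adjustment over all tested genes, called under 0.05. CPM are TMM-scaled, intervals are 95%, and the scripts were tested on simulated data. Alternatives used DESeq2 1.42.0, limma 3.58.1 (voom, and trend on log2(TPM + 1) or log2(TPM + 0.1)), other filters and scalings, the replicate block and each library left out. Gene positions and exons came from GENCODE M21 (GRCm38).

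The members, marker lists and pathway list were chosen with earlier results of these data known. Named in full are members called in any comparison and the 2 with the highest mean TPM in each role. Other members, and Slc38a5 as the called pathway gene, are given by range, count or, where a library or group pattern is described, by their values, chosen after these were seen. Within groups every pair of libraries differed by more than counting noise (a chi-square of 4.93 to 29.4 per degree of freedom).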

Additional observations from a re-analysis of the deposited data

How the results depend on the processing

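Of 1322 values of single members under alternatives, 1310 kept their side of the threshold, 6 gained a call, 6 lost one and none of the called values changed sign. The sign differed in 87, in none of which the member was called. In 3AP against control the number of members called was 0, and 1 with DESeq2, without a filter on low counts, with only the 6 libraries of the 2 groups, and with the effective length trend removed; in each case this was Slc6a9 (adjusted p 0.0282, 0.0343, 0.0185 and 0.0435). In PLX3AP against 3AP it was 1, and 0 with limma-trend on log2(TPM + 1), with or without the filter, and on log2(TPM + 0.1), with a range of 0 to 2 when 1 library was left out. In PLX3AP against control it was 0, with a range of 0 to 1 when 1 library was left out. The median log2 fold change of synthesis and transport genes in 3AP against control, -0.002, ranged from -0.089 to 0.021 when 1 library was left out. Beyond the smaller number of samples, the causes were not tested.

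Same-numbered libraries did not deviate together (correlations of -0.203 to 0.0931), and the main fit used no pairing. The labels do not say what the numbers mean, and such correlations cannot exclude a pairing. With the replicate block 0, 1 and 0 members were called in the 3 comparisons (in the order used above), and 580, 504 and 10 genes of all tested, where the fit without the block called 820, 621 and 20. Slc6a9 in PLX3AP against 3AP had a log2 fold change of 0.43 and an adjusted p of 0.026 with the block. Over all genes, calls in PLX3AP against control ranged from 4 (limma-trend on TPM) to 110 (DESeq2) and 153 (without PLX3AP replicate 1). In 3AP against control they fell to 425 to 528 and in PLX3AP against 3AP to 347 to 401 in the fits that moved them by over 1.5 times. Low counts limit Gabre, Glra1, Glra3, Gabrg3 and Gabra5, with 112 to 873 counts each over 9 libraries.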
